A study of Mus musculus with 6 samples.

Results

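The ephrin, Slit and netrin guidance systems are families of secreted or membrane-bound cues and their cell surface receptors. They were taken here as the protein-coding genes whose symbols belong to the Eph receptors, the ephrins, Slit1 to Slit3, Robo1 to Robo4, the netrins, the Unc5 receptors, Dcc and Neo1. The symbol rule found 39 genes among the 45703 in the count table, and it used no expression value. The samples were 6 cultures of dorsal root ganglia (DRG), the ganglia beside the spinal cord that hold sensory neuron cell bodies and their glia. The animals were C57BL/6, wild type and adult at 4 to 6 weeks, and the samples formed a single group, so there was no treated or control group to compare. The cells grew for 7 days on poly-L-lysine in medium with 10% fetal calf serum and EGF and FGF at 10 ng/ml. RNA from 2 dishes made each sample, and poly-A RNA was sequenced. The cultures are named as biological replicates, but which animals went into which dish is not stated, so p-values measure the spread between these samples only.

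The libraries held between 20070638.9 and 22968641.6 counts, and the labels give no batch or date. The guidance genes took 0.131% ± 0.00923 of the counts (SD, n = 6). These were mixed cultures. Marker lists of cell types were chosen with earlier results of these data known. Summed over these lists, satellite glia genes such as Fabp7 and Kcnj10 reached 957 to 1546 CPM (a gene's counts scaled to the total of its library). Neuron genes reached 1062 to 2297 CPM, and fibroblast genes such as Col1a1 and Pdgfra 3341 to 14113 CPM. Endothelial markers were low, at 11.7 to 146 CPM in sum, and mural markers reached 55.6 to 1056 CPM. No marker on these 5 lists was at or under 3 counts in all 6 libraries. Replicate 1 had the lowest fibroblast, endothelial, mural and macrophage sums and replicate 5 the highest. The neuron sum was lowest in replicate 5. The satellite glia sum was nearly equal in replicates 5 and 1, at 957 and 964 CPM, and higher in the others. In bulk RNA, more cells of a type and more RNA per cell cannot be told apart.

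Ephrins are ligands held at the cell surface, ephrin-A by a lipid anchor and ephrin-B by a transmembrane segment. They bind Eph receptor tyrosine kinases on a neighbouring cell, and both cells can respond. Slits are secreted proteins that repel axons and migrating cells through Robo receptors. Netrins attract axons through Dcc and repel them through Unc5 receptors, and Neo1 (neogenin) is a relative of Dcc that also binds repulsive guidance molecules. In the sensory system these families are known for steering growing axons, and several also act in vessels, connective tissue and nerve repair.

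The promoter windows of 4 members that differed widely between cultures are printed first, because these genes recur below. Each is the 250 bases before the RefSeq start on GRCm38.p6, read 5′ to 3′ on the gene's strand, with every GC box (GGGCGG, searched on both strands) in capitals. The windows are chr10:60831582-60831831 on the minus strand for Unc5b, chr3:141465314-141465563 on the plus strand for Unc5c, chr16:63864176-63864425 on the minus strand for Epha3 and chr11:35121206-35121455 on the plus strand for Slit3.
Unc5b: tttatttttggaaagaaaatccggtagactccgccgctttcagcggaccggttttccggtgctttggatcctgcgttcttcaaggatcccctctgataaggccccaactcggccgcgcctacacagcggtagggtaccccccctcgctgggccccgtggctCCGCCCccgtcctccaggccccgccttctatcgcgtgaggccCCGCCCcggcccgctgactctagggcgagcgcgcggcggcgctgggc
Unc5c: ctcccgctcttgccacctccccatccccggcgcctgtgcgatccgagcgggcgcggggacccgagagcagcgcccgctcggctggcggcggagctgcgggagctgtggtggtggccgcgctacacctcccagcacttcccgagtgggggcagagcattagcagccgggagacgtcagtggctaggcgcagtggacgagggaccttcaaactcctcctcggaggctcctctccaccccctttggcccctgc
Epha3: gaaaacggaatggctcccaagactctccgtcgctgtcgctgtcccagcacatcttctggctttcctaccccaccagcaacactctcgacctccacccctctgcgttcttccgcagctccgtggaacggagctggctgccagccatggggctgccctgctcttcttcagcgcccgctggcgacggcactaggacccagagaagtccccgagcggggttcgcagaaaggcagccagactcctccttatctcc
Slit3: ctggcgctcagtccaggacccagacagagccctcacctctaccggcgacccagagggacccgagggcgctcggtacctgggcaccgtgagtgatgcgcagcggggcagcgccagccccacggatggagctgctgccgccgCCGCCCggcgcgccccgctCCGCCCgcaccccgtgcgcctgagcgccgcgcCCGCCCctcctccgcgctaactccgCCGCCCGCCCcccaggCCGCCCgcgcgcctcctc
Slit3 held 6 GC boxes and Unc5b 2, while these letters did not occur in the windows of Unc5c and Epha3. The motif was thus not common to the 4 windows. RefSeq windows were matched for 34 members, with 39 windows in all because some genes have several starts. A GC box was present in 27 of the 39 windows, 69.2%, against 42.6% of 21263 windows of protein-coding genes. The letters TATAAA (both strands) occurred in 2 of the 39, 5.13%, against 11.6%. The TEAD core GGAATG (both strands) occurred in 5 of the 39, 12.8%, against 11.7%. Median GC content was 65.6% in the member windows and 55.6% in the protein-coding ones. A motif match describes the letters and is not evidence of binding.

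Most of the system was detected. Of the 39 members, 27 reached 1 CPM in all 6 libraries, 69.2%, where 55.8% of all protein-coding genes did so. The others were mostly low. Robo3, a divergent Robo receptor, had 3 counts in replicate 5 and at most 0.17 in any other library. Epha8 had 3, 1, 5, 2, 1 and 0 counts in replicates 1 to 6. Dcc, the attractive netrin receptor, had 6, 6, 0, 3, 7 and 7 counts. In these libraries a count of 0 allows a level of up to 0.131 to 0.149 CPM, a limit that covers counting error only. To compare genes, levels below are given as CPM per kilobase of the combined exon length in the table. That length joins the exons of all transcripts, so a gene used mainly as a short transcript is placed too low.

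Among the ligands that act by contact, ephrin-B exceeded ephrin-A. The 3 ephrin-B genes summed to 28.4 ± 3.44 CPM per kb (SD, n = 6) and the 5 ephrin-A genes to 10.15 ± 1.54 CPM per kb, and the ephrin-B sum was the higher in all 6 libraries. Efnb1 (chromosome X, 99136061 to 99149022) carried 79.1% ± 3.19 of the ephrin-B sum. Its values were 76.6, 95.4, 72.4, 69.3, 70.9 and 68.2 CPM in replicates 1 to 6. Replicate 2 stood above the other five. Efnb2 (chromosome 8, 8617235 to 8661242), the ephrin best known from arteries, had 72.5, 62.7, 45.2, 62.1, 74.0 and 49.0 CPM. Per kilobase Efnb2 was lower than Efnb1 in 6 of 6 libraries. The difference, Efnb2 minus Efnb1, was -2.005 ± 0.30 on the log2(CPM per kb + 0.1) scale (SD, n = 6), or 4.01-fold. The two-sided exact sign-flip permutation test gave p = 0.0312, the smallest possible with 6 libraries, and 0.0521 after Benjamini-Hochberg adjustment over 10 pairs of members. None of the 10 pairs passed 0.05 after adjustment, and 6 of them were at the smallest possible p. Efnb3 was much the lowest of the ephrin-B genes, at 0.349 ± 0.0945 CPM per kb.

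The ephrin-A ligands were all lower per kilobase than Efnb1 and Efnb2 on average, and 4 of the 5 lay close together. Efna4 led with 3.64 ± 0.751 CPM per kb (SD, n = 6), followed by Efna1 with 2.73 ± 0.415, Efna2 with 2.19 ± 0.402 and Efna5 with 1.41 ± 0.589. The ranges of neighbours in this order overlapped across the libraries. Efna3 was at 0.173 ± 0.116 CPM per kb, well below the rest. Efna1, Efna3 and Efna4 lie next to each other on chromosome 3, with gaps of 32.9 and 10.5 kb. Efna5 had 5.75, 7.56, 7.15, 8.92, 14.4 and 4.83 CPM and was highest in replicate 5. Per kilobase Efna5 was below Efna1 in 5 of 6 libraries, with a log2 difference of -0.98 ± 0.56 (SD, n = 6). The same exact permutation test gave p = 0.0625, adjusted 0.0781.

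On the receptor side EphB also exceeded EphA. The 5 EphB genes summed to 47.97 ± 6.41 CPM per kb (SD, n = 6) and the 9 EphA genes to 18.8 ± 3.35, with EphB higher in all 6 libraries. No single EphB receptor dominated. Ephb3 stood at 14.8 ± 2.32 CPM per kb, Ephb2 at 13.4 ± 2.60, Ephb6, which lacks kinase activity, at 11.3 ± 2.65 and Ephb4, the partner of Efnb2 in veins, at 8.40 ± 1.04. Ephb2 (chromosome 4, 136647536 to 136836326) had 112, 155, 156, 165, 116 and 186 CPM. It was lowest in replicates 1 and 5, the cultures at opposite ends of the fibroblast range. Per kilobase, Ephb2 minus Ephb3 was -0.15 ± 0.34 on the log2 scale, between -0.49 and 0.33 in single libraries. The exact permutation test gave p = 0.312, adjusted 0.347. Ephb2 had a count that was not a whole number in 5 of 6 libraries, so its level may include reads divided between places. Ephb1 was low at 0.435, 0.319, 0.323, 0.648, 2.39 and 0.239 CPM, with replicate 5 above the others.

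Epha5 gave the largest mean share of the EphA sum, at 50.1% ± 14.4 (SD, n = 6). Its values were 151, 89.1, 88.6, 71.8, 109.6 and 48.2 CPM in replicates 1 to 6 (chromosome 5, 84054761 to 84417818). Epha5 made up between 31.3% and 73.5% of the EphA sum, the highest share in replicate 1 and the lowest in replicate 6. In replicate 6 Epha2 stood above Epha5 per kilobase, at 8.37 against 4.94 CPM per kb, and in replicate 4 they were close, at 7.17 and 7.36. Epha2, known from epithelia and many cultured cells, had 17.3, 23.6, 20.6, 29.9, 28.9 and 34.9 CPM. Replicate 1 had the least Epha2 and replicate 6 the most. Epha7 followed with 7.44, 8.88, 9.42, 9.52, 15.8 and 11.9 CPM. Per kilobase, Epha5 stood at 9.55 ± 3.60, Epha2 at 6.21 ± 1.57 and Epha7 at 1.24 ± 0.352 CPM per kb.

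Below these lay 3 EphA receptors with a wide range between the extreme cultures. Epha4, a receptor that binds ephrins of both classes, had 0.610, 1.18, 3.28, 3.74, 6.78 and 3.01 CPM, an 11.1-fold range. Epha3, known from mesenchymal cells as well as motor axons, had 0.914, 1.55, 1.62, 3.24, 9.43 and 1.43 CPM, a 10.3-fold range (chromosome 16, 63543532 to 63864175). Epha1 had 0.566, 1.14, 2.40, 3.04, 5.71 and 0.956 CPM, a 10.1-fold range. In all 3 genes replicate 5 was highest and replicate 1 lowest. Per kilobase Epha4 was below Epha7 in 6 of 6 libraries, with a difference of -1.38 ± 0.65 on the log2(CPM per kb + 0.1) scale and -0.61 with 1 added instead. The exact permutation p was 0.0312 in both, adjusted 0.0521. Epha1 overlaps Zyx on the opposite strand, and Zyx had 128, 191, 175, 278, 384 and 191 CPM. Whether the counting used strand is not given in the sources used here, so reads in the overlap cannot be told apart. Epha10 and Epha6 stayed near the limit, at 0.0451 and 0.0261 CPM per kb.

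**Figure D1:**
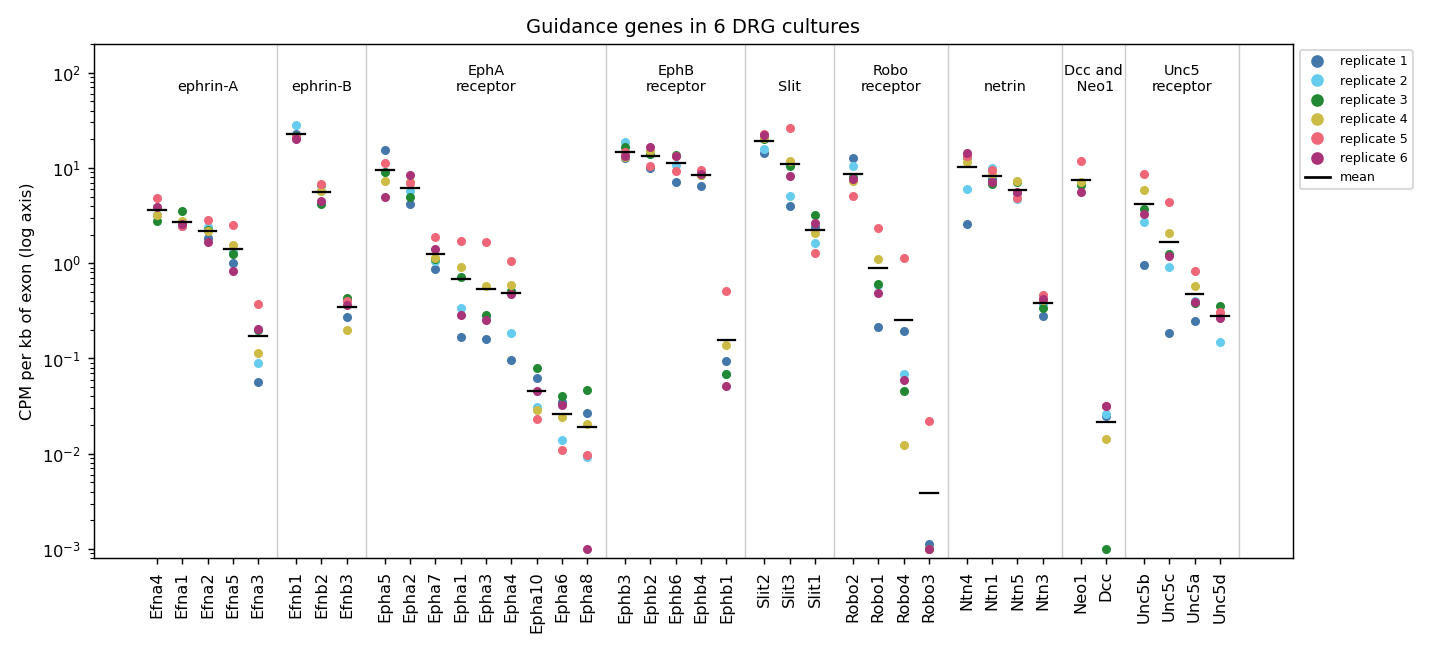
Level of each of the 39 members in CPM per kilobase of combined exon length on a log axis, with 1 point per library and members grouped by family. Libraries with 0 counts are drawn at the bottom of the axis. Efnb1, Slit2, Ephb3 and Ephb2 are among the highest, and the points of Unc5c, Robo1, Epha1, Epha3 and Epha4 spread over about a factor of 10 or more.

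Slit2 was the most abundant Slit per kilobase on average, and its range between cultures was the smallest of the 3, at 1.58-fold. It had 169, 189, 239, 247, 267 and 266 CPM in replicates 1 to 6 (chromosome 5, 47981291 to 48307735), with replicate 1 the lowest. Slit3 (chromosome 11, 35121456 to 35708507) had 20.03, 25.6, 51.9, 58.5, 133 and 41.5 CPM, a 6.62-fold range with replicate 5 far above the others. Slit1 had 19.4, 13.1, 26.0, 16.7, 10.4 and 21.5 CPM and was lowest in replicate 5. The Slit sum moved from 20.6 CPM per kb in replicate 1 to 50.3 in replicate 5, and the share of Slit2 in it lay between 44.7% and 70.3%. Slit2 exceeded Slit1 in every library, by 3.11 ± 0.55 on the log2 scale, an 8.62-fold difference (exact permutation p = 0.0312, adjusted 0.0521). Slit2 exceeded Slit3 in 5 of 6 libraries, by 1.06 ± 0.74 (p = 0.0625, adjusted 0.0781, same exact test). In replicate 5 the order was turned, at -0.24.

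The Robo receptors were mainly Robo2. Robo2 (chromosome 16, 73891976 to 75447443) had 274, 226, 171, 158, 108 and 163 CPM, highest in replicate 1 and lowest in replicate 5. Robo1 (chromosome 16, 72027518 to 73047491), which lies 844 kb from Robo2, had 2.35, 6.38, 6.65, 12.1, 25.3 and 5.26 CPM, with the extremes in the same libraries but exchanged. The share of Robo2 in the Robo sum was 96.9% in replicate 1 and 59.3% in replicate 5. Per kilobase Robo1 was below Robo2 in every library, and Robo1 minus Robo2 was -3.38 ± 1.43 on the log2(CPM per kb + 0.1) scale (exact permutation p = 0.0312, adjusted 0.0521). That is a 10.4-fold difference, which became 5.19-fold with 1 added instead of 0.1. Single libraries ranged from -5.36 to -1.09. Robo4, the endothelial Robo, had 18, 6, 4, 1, 95 and 5 counts, so replicate 5 held most of its counts. All 8 endothelial markers were also highest in replicate 5, and 4 of the 8 reached 1 CPM in all libraries. Highest there too were 7 of 8 fibroblast, 5 of 7 mural and 5 of 7 macrophage markers, so this was not particular to endothelial genes. Replicate 1, next highest for Robo4 with 18 counts, had the lowest endothelial sum.

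**Figure D2:**
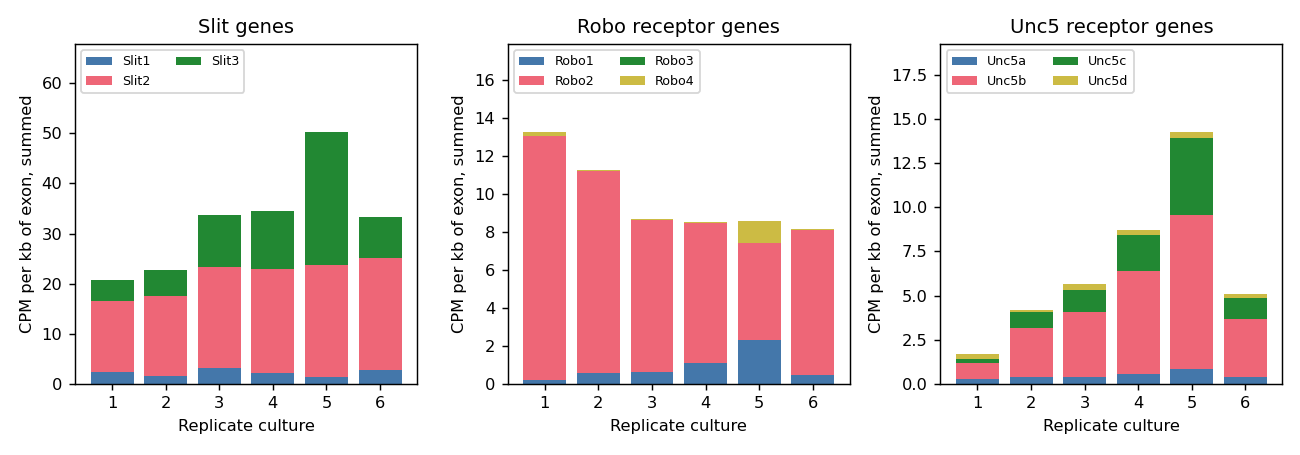
CPM per kilobase in each of the 6 libraries, stacked by gene within the Slit, Robo and Unc5 families, with every bar starting at 0. Robo2 makes up 96.9% of the Robo sum in replicate 1 and 59.3% in replicate 5, and the Unc5 sum runs from 1.68 to 14.3 CPM per kb.

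Among the netrins, Ntn4 and Ntn1 reached like mean levels per kilobase but behaved differently across cultures. Ntn4 (chromosome 10, 93641049 to 93745972), a basement membrane netrin, had 6.14, 14.7, 31.4, 28.2, 32.1 and 34.7 CPM. Replicate 1 was lowest and replicate 2 the next, while the other four lay close together. Ntn1 (chromosome 11, 68209364 to 68386826), the classical secreted cue, had 43.9, 56.9, 39.1, 49.5, 54.6 and 40.4 CPM, a 1.46-fold range. Per kilobase they stood at 10.2 ± 4.75 and 8.26 ± 1.30 (SD, n = 6), a log2 difference of -0.10 ± 1.01 for Ntn1 minus Ntn4, between -1.02 and 1.55 in single libraries (exact permutation p = 0.844). Ntn5 had 5.86 ± 1.15 CPM per kb and Ntn3 0.381 ± 0.0663. Ntn3 lies on the same strand as Tbc1d24, which had 22.6 to 28.2 CPM where Ntn3 had 1.37 to 2.29, and the 2 genes overlap, so the level of Ntn3 is uncertain.

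The netrin receptors present were Neo1 and the Unc5 family, with Dcc near the limit of detection. Neo1 (chromosome 9, 58874679 to 59036614) had 52.9, 52.7, 50.1, 53.7, 90.4 and 42.7 CPM, highest in replicate 5 and close together in replicates 1 to 4. Per kilobase Neo1 stood at 7.55 ± 2.22 and Dcc at 0.0215, with Neo1 higher in every library (exact permutation p = 0.0312, adjusted 0.0521). Their log2 difference was 5.94 with 0.1 added and 3.03 with 1 added, so its size was set largely by the added constant.

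The Unc5 receptors differed widely between cultures. Unc5c (chromosome 3, 141465564 to 141834924) had 1.74, 8.61, 11.6, 19.3, 41.2 and 11.1 CPM, a 23.6-fold range. Unc5b (chromosome 10, 60762594 to 60831581), known as a vascular netrin receptor too, had 5.57, 16.03, 21.6, 34.03, 51.1 and 19.1 CPM, a 9.17-fold range. Unc5a had 2.05, 3.32, 3.14, 4.73, 6.88 and 3.25 CPM. All 3 were lowest in replicate 1, next to highest in replicate 4 and highest in replicate 5. Unc5d stayed between 1.37 and 3.29 CPM and did not share that order. Despite these swings, Unc5b made up 56.5% to 66.4% of the Unc5 sum in every library. Per kilobase Unc5b exceeded Unc5c in every library, by 1.44 ± 0.29 on the log2(CPM per kb + 0.1) scale and by 0.95 with 1 added instead (exact permutation p = 0.0312, adjusted 0.0521 in both). Unc5a overlaps Hk3 on the opposite strand, and Hk3 had 0.392, 0.638, 4.48, 5.58, 9.08 and 2.58 CPM, so here too shared reads cannot be told apart.

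The spread of the members between cultures was set beside that of all genes. edgeR's filter on low counts kept 14998 genes, 31 of them members. It dropped Epha10, Epha6, Epha8, Ephb1, Robo3, Robo4, Efna3 and Dcc, and it needs a sufficient count in all 6 libraries, so it removes genes high in 1 culture alone. In a chi-square test against counting noise, 28 of the 31 varied after Benjamini-Hochberg adjustment, with 76.3% of all genes tested called, so a call here says little about a member. Efna1, Efnb3 and Ntn3 were not called, at adjusted p-values of 0.113, 0.0720 and 0.369. The median coefficient of variation was 27.0% over the members tested and 12.1% over all genes tested. Replicate 5 was the highest library for 21 of the 39 members and replicate 1 the lowest for 19, with 13 members in both counts. The same counts were not made over all genes, so they cannot be told apart from a trait of these libraries as a whole.

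Because marker genes of other cell types also differed between the cultures, each gene's relation to marker scores was fitted. The fibroblast score, the mean log2(TMM-scaled CPM + 0.5) of 8 markers, was 5.23, 6.55, 6.55, 7.61, 8.54 and 6.34 in replicates 1 to 6. A slope is the log2 change of a gene per unit of score, tested with edgeR's quasi-likelihood test adjusted over all genes. Of the 31 members tested, 8 were called with a slope above 0 at an adjusted p under 0.05, where 4.93% of all genes tested were. In the other direction 1 member was called, where 1.19% of all genes were. The median slope was 0.16 over the members tested and -0.01 over all genes tested.

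The 8 genes were 6 receptors, of the EphA, Robo and Unc5 families, and the ligands Slit3 and Efna5. Unc5c had a slope of 1.15 ± 0.146 (SE, n = 6), with an adjusted p of 0.00558 in edgeR's test. Epha3 had one of 1.07 ± 0.105 (adjusted p = 0.00205, edgeR) and Robo1 one of 1.00 ± 0.0527 (adjusted p = 0.000223, edgeR). A slope of 1.00 is the mean rate of the fibroblast markers themselves. The slopes were 0.98 ± 0.142 for Epha1, 0.87 ± 0.104 for Unc5b, 0.77 ± 0.113 for Slit3, 0.51 ± 0.0657 for Unc5a and 0.41 ± 0.0907 for Efna5, the last with an adjusted p of 0.0434 in edgeR's test. Epha1 and Unc5a overlap Zyx and Hk3, which were also lowest in replicate 1 and highest in replicate 5. Whether shared reads enter the slopes of Epha1 and Unc5a on any score was not tested. Robo2 was the member that fell as the score rose, at -0.38 ± 0.0755 (adjusted p = 0.0318, edgeR). Epha4 had a slope of 0.84 ± 0.201 and was not called (adjusted p = 0.0572, edgeR).

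**Figure D3:**
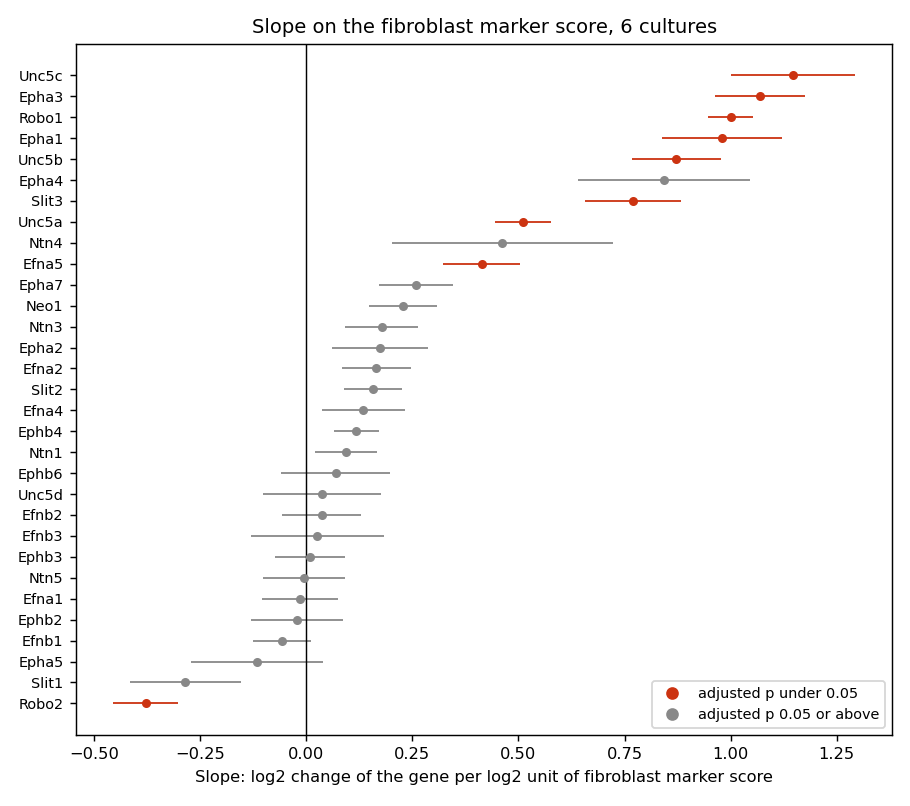
Slope of each of the 31 members tested on the fibroblast marker score, in log2 units per unit of score, with bars of 1 standard error and called members marked. Unc5c, Epha3 and Robo1 lie at 1.00 or above, and Robo2 lies at -0.38.

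Robo1 and Epha3 followed the order of the score in TMM-scaled values, with a Spearman correlation of 1.00 for each (exact permutation p = 0.00278, adjusted over all genes 0.225). The Pearson correlation over the 6 libraries was 1.00 after rounding for Robo1 (exact permutation p = 0.00139, adjusted over all genes 0.125) and 0.96 for Epha3. Without replicates 1 and 5, which lie farthest from the median score, r was 1.00 for Epha3, 0.99 for Robo1, 0.96 for Unc5a, 0.92 for Unc5b, 0.89 for Unc5c, 0.79 for Epha1, 0.75 for Efna5, 0.56 for Slit3 and -0.37 for Robo2. These r values rest largely on replicate 4 (score 7.61), because replicates 2, 3 and 6 lay close together (6.55, 6.55 and 6.34). By correlation 0 of the 14998 genes passed 0.05 after adjustment. With 720 pairings the exact permutation p cannot fall below 0.00139 (Pearson) or 0.00278 (Spearman). A gene could thus pass only if many genes shared these smallest values. In edgeR's slope test 12 members and 24.1% of all genes had an unadjusted p under 0.05. Without replicate 5, Robo1 alone of the 8 was still called, at a slope of 0.98 (adjusted p = 0.0203, edgeR), and the share of all genes called above 0 was 0.628%. The slopes in that fit were 1.33 for Unc5c, 1.05 for Unc5b, 1.02 for Epha1, 0.77 for Epha3, 0.62 for Slit3, 0.49 for Unc5a, 0.28 for Efna5 and -0.33 for Robo2, so all kept their sign. Without replicate 5, edgeR's adjusted p was 0.0566 for Unc5b, 0.0800 for Epha3, 0.136 for Unc5c, 0.188 for Unc5a, 0.228 for Epha1, 0.302 for Slit3, 0.367 for Robo2 and 0.537 for Efna5. Robo2 was also lost without replicate 1 (0.122, edgeR) or 4 (0.0732), and Efna5 without replicate 2 (0.0581), 3 (0.0699) or 4 (0.0895). Without replicates 1 and 5, edgeR called 0 of 15364 genes and so 0 members, and 5 members had an unadjusted p under 0.05, as did 4.40% of all genes. All 8 fibroblast markers were lowest in replicate 1 and 7 were highest in replicate 5.

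**Figure D4:**
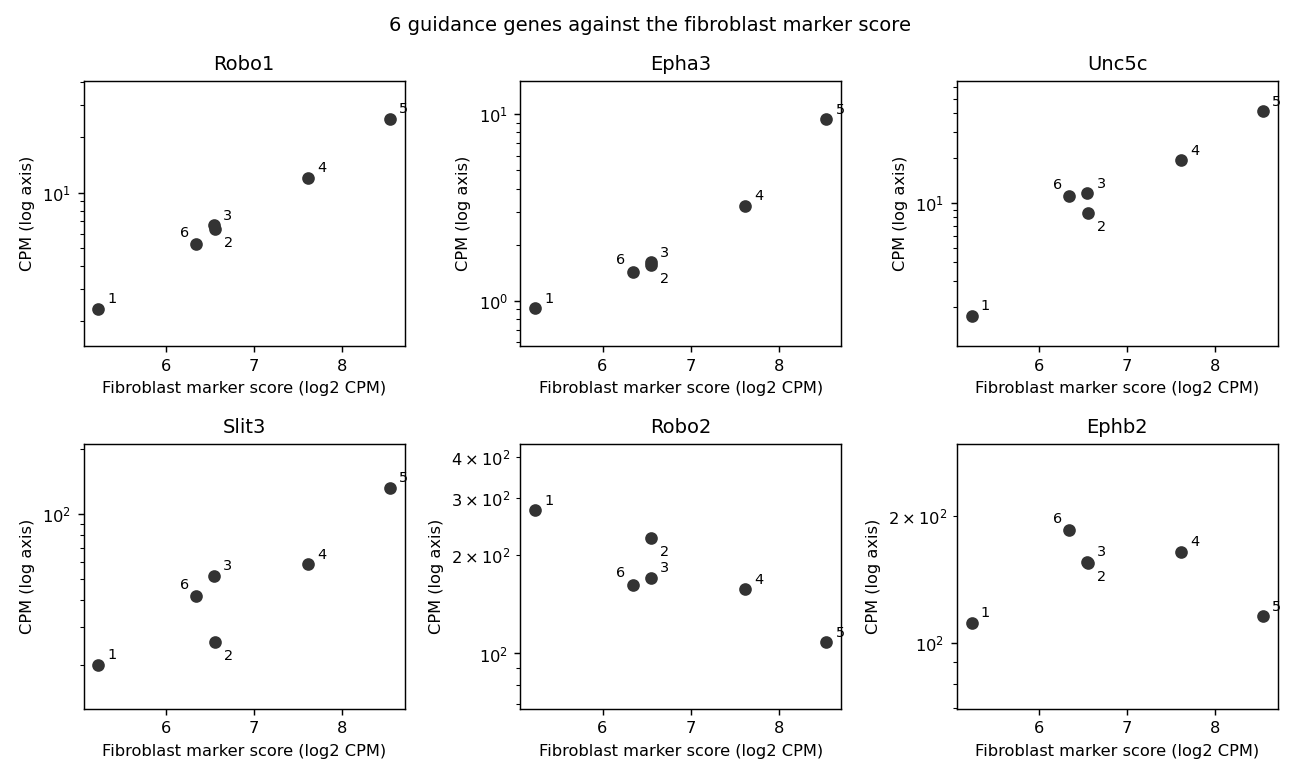
CPM of 6 guidance genes on log axes against the fibroblast marker score, with 1 numbered point per library. Robo1, Epha3, Unc5c and Slit3 are lowest in replicate 1 and highest in replicate 5, Robo2 is the reverse, and Ephb2 is low in both.

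The endothelial score picked out nearly the same members. It was 0.78, 1.21, 1.52, 1.88, 3.47 and 1.55 in replicates 1 to 6, lowest and highest in the same cultures as the fibroblast score, so the 2 scores cannot be told apart here. In edgeR's test 7 members were called with a slope above 0, where 4.26% of all genes tested were. With a slope below 0, 1 member was called, where 1.87% of all genes were. All 8 were among the 9 called on the fibroblast score, and Efna5 was the gene missing. Slit3 had a slope of 0.97 ± 0.107 (adjusted p = 0.0137, edgeR) and Robo2 one of -0.48 ± 0.0793 (adjusted p = 0.0257, edgeR). These calls held in 6 of 6 fits that each left out 1 library. Without replicate 5, which spans much of the range of this score, the slopes were larger, at 1.51 for Slit3, -0.84 for Robo2, 2.79 for Unc5c, 2.19 for Unc5b, 2.10 for Epha1, 1.83 for Robo1 and 0.93 for Unc5a. Robo1 and Epha3 were lost without replicate 5 alone (adjusted p = 0.0820 and 0.120, edgeR). Unc5b and Unc5c were lost without replicate 2, 3, 4 or 6, with edgeR's adjusted p up to 0.0883 and 0.0729. Unc5a was called in 1 of 6 such fits, the one without replicate 4, and Epha1 in 0 of 6, with edgeR's adjusted p from 0.0521 to 0.126. The parts of fibroblasts, endothelial cells and other cell types in these slopes were not tested.

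In edgeR's test Slit1 alone was called on the neuron score. That score had a Pearson correlation of -0.64 with the fibroblast score, so the 2 are not separate measures. It was 6.70, 6.12, 7.00, 6.45, 5.93 and 6.66, highest in replicate 3 and lowest in replicate 5, as was Slit1 itself. Its slope was 1.20 ± 0.134 (SE, n = 6; adjusted p = 0.0473, edgeR), and it was the 1 member called above 0, where 0.293% of all genes were. In the fits that each left out 1 library its slope was 1.08 to 1.27, and it was not called (edgeR's adjusted p from 0.117 to 0.432), but in those fits 0 genes of any kind were called above 0. Below 0, edgeR called 0 members, but the share of all genes called in either direction was also 0.293%, so no gene was called there. In edgeR's test 8 members in either direction had an unadjusted p under 0.05, as did 12.3% of all genes. The median slope on the neuron score was -0.41 over the members tested and 0.002 over all genes tested. The slope was above 0 for 8 of the 31 members tested and for 50.4% of all genes. DESeq2 called Ntn1 below 0, and it called 2.70% of all genes in either direction and 2.09% above 0.

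Other genes of these pathways were broadly present. Of 40 listed signalling and ligand-binding partners, 36 reached 1 CPM in all 6 libraries, where 55.8% of all protein-coding genes did so. None of the 40 was at or under 3 counts in all 6. The highest per kilobase were Gpc1, a glypican that binds Slit, at 226 CPM per kb and Adam10, the protease that cleaves ephrins, at 223. Next came Rhoa at 202, Rac1 at 198 and Cdc42 at 119, the small GTPases through which these receptors act on the cytoskeleton, and Pitpna at 57.3. Of the 38 partners tested, 2 were called with a fibroblast slope above 0 and 1 below 0. That is 7.89%, close to the 6.13% of all genes called in either direction. Flrt2, a ligand of Unc5 receptors, had 4.70, 26.8, 26.4, 49.5, 120 and 23.3 CPM, a 25.5-fold range. Its slope was 1.24 ± 0.112 (adjusted p = 0.00146, edgeR), close to that of Unc5c. Tiam1, a Rac activator, had a slope of 0.84 ± 0.0996 (adjusted p = 0.00431, edgeR). Srgap1, a GTPase-activating protein that binds Robo, fell with the score like Robo2, at -0.24 ± 0.0305 (adjusted p = 0.00525, edgeR). All 3 were lost without replicate 5, where edgeR's adjusted p was 0.0565 for Flrt2, 0.188 for Tiam1 and 0.147 for Srgap1 and the slopes were 1.37, 0.57 and -0.22. On the endothelial score the same 3 were called in the same directions, and Pick1, a scaffold that binds ephrin-B, was called below 0 at -0.36 (adjusted p = 0.0276, edgeR). Leaving out 1 library at a time, these endothelial calls held in 5 of 6 fits for Tiam1 (lost without replicate 5), in 2 of 6 for Flrt2 and Srgap1 (held without replicate 1 or 2) and in 1 of 6 for Pick1 (held without replicate 1). On the neuron score edgeR called 0 of the 38, where 0.293% of all genes were called. In that test 10 of the 38 had an unadjusted p under 0.05, as did 12.3% of all genes. There DESeq2 called 4, Grip1, Grip2, Rgma and Srgap3, or 10.5% against 2.70% of all genes. DESeq2 called 4 partners on the fibroblast score, adding Adam10, or 10.5% against 11.8% of all genes. On the endothelial score it called 11, or 28.9% against 13.1% of all genes, where edgeR called 4, or 10.5% against 6.13%.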

How the data were processed

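The authors deposited 1 table of estimated counts per gene for the 6 cultures. Per the submitters' processing notes, bcl2fastq 2.20.0.422, cutadapt 2.5, STAR 2.7.2b, featureCounts 1.6.4 and Subread were used with GRCm38.p6, listed with no role or order. Strand and multi-mapping settings are not given in the sources used here, and 11 members had a count that was not whole in at least 1 library. CPM used the total count of a library, and combined exon lengths came from the table. For tests, counts were rounded to whole numbers, filtered with filterByExpr and scaled with TMM (factors 0.977 to 1.02) in edgeR 4.0.16 (R 4.3.3). Slopes on marker scores used the quasi-likelihood test, and variation a chi-square test, both adjusted by Benjamini-Hochberg over all 14998 genes. On simulated counts the slope test recovered 182 of 200 changed genes and the chi-square test 189, with 5 and 8 other calls. The simulated counts held no shift of many genes in 1 library, so they do not cover that case. Pairs were compared on log2(CPM per kb + 0.1) by exact sign-flip permutation over 64 sign patterns. Alternatives were DESeq2 1.42.0, other scalings, no filter, rounding down, another pseudocount, another score and leaving out libraries. Named genes were all members, and of 40 partners the 6 highest per kilobase, any with no more than 3 counts in each library, and those called on a slope. The members and lists were chosen with earlier results of these data known.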

Additional observations from a re-analysis of the deposited data

Results flagged for a closer look

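Among 38 members tested, 7 had 1 library far from the other five, where the gap to the nearest library divided by the whole range exceeded Dixon's critical value for 6 samples. Chance gives about 1 in 20 such genes, or 1.9 here. Of the 15385 protein-coding genes measured the same way, 8.51% were past that value, against 18.4% of the members, and in 57.0% of those genes the library was replicate 5. In 5 of the 7 the library was replicate 5, which stood highest: the ratio was 0.837 for Robo4, 0.810 for Ephb1, 0.771 for Neo1, 0.727 for Epha3 and 0.658 for Slit3. Efna1 stood apart in replicate 3, with a ratio of 0.697, and Efnb1 in replicate 2, with 0.691. Both were highest there. Genes in 1 library are not independent of each other.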

How the results depend on the processing

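Under the alternatives run, no called slope, no pair difference and not the fibroblast slope of Epha4 changed direction. The direction of the other slopes was not checked. The number of members called with a fibroblast slope above 0 was 8. It was 4 with a score from summed CPM (3.27% of all genes called), 1 to 9 when 1 library was left out (0.628% to 4.74%), and 0 without replicates 1 and 5, where 0 of all genes were called. The 1 member called below 0 became 0 with summed CPM and without replicates 1 and 5. It became 0 to 1 when 1 library was left out. On the endothelial score, 7 members called above 0 became 11 with DESeq2 (7.65% of all genes called). They became 3 to 6 when 1 library was left out (1.08% to 3.90%). Without the 2 libraries farthest from the median they became 0, and the member called below 0 also became 0. On the neuron score the 1 member became 0 with no filter, when any 1 library was left out and without the 2 farthest. Without the 2 farthest, unadjusted p-values were under 0.05 for 5, 3 and 8 members on the fibroblast, neuron and endothelial scores, and for 4.40%, 2.97% and 7.22% of all genes. With no filter, Ephb1 was called on the endothelial score too. Fewer libraries leave fewer residual degrees of freedom. Epha4 was called on the fibroblast score by DESeq2 (adjusted p = 0.00155), with no filter (0.0420, edgeR) and without replicate 6 (0.0453, edgeR). With no filter, the chi-square test called 33 of 39 members where 50.2% of all genes were called. Counts near 0 limit Robo3, Epha8 and Dcc. No pairing of samples was possible because all samples form 1 group. The paired comparisons above were between members within a library.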
